A study of Rattus norvegicus with 16 samples.

Results

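Ketone body enzymes make, interconvert and use acetoacetate and 3-hydroxybutyrate, the water-soluble fuels that the liver exports during fasting. Of the 4 genes listed for this group, 3 (Bdh1, Bdh2 and Acat1) had a row of their own on the array, out of 13215 genes with such a row. The row chosen for a gene was the brightest that carries exactly 1 gene symbol in the array annotation, and each of the 3 had a single such row: transcript cluster 7094280 for Bdh1, 7199478 for Bdh2 and 7345805 for Acat1. The remaining listed gene, Oxct1, shares its row (7190250) with a second symbol, so no value is given for it. The genes were chosen by name and function, not by a measured value.

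The samples were livers of 16 male Sprague Dawley rats on Affymetrix Rat Exon 1.0 ST arrays, 1 rat per array, in 4 groups of 4. The fed group was never fasted, the P2 and P3 groups were sampled in phase 2 and phase 3 of a fast, and the P3r2 group reached phase 3 before 2 days of re-feeding. In phase 2 of a long fast the body runs mainly on fat and spares protein, and in phase 3 protein breakdown rises. No group carried a transgene or drug. Neither ages nor durations of fasting are given in the sources used here.

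In hepatocyte mitochondria, acetyl-CoA from fatty acid oxidation is joined in pairs by the thiolase Acat1. The product is turned into acetoacetate, and Bdh1, a dehydrogenase of the inner mitochondrial membrane, reduces acetoacetate to 3-hydroxybutyrate. Both reactions are reversible, and in tissues that burn ketones Bdh1 and Acat1 run the other way around the transferase Oxct1, which hepatocytes hold in very low amounts. Bdh2 is a cytosolic short-chain dehydrogenase that can also oxidise 3-hydroxybutyrate and was described in mouse as a maker of an iron-binding siderophore.

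Values are log2 signals per transcript cluster as deposited. Differences are first group minus second in log2 units ± the standard error of 1 limma model over all 16 arrays, and "called" stands for a limma p below 0.05 after Benjamini-Hochberg adjustment over the 18885 rows tested. A log2 signal of an array is compressed near the background, so the fold of a gene that becomes dim may be understated. The files hold no detection calls. The arrays had median signals of 4.34 to 4.46 and correlated at 0.966 to 0.992 within groups and 0.912 to 0.985 between groups. Over the 8 of 10 listed hepatocyte markers with a row (Alb, Ttr, Apoh, Serpina1, Cps1, Asgr1, Ttpa and Hpx), the mean log2 signal per array ran from 12.27 to 12.63 in fed, 12.79 to 12.85 in P2, 12.06 to 12.4 in P3 and 12.51 to 12.58 in P3r2 livers. From phase 2 to phase 3, 8.53% of all rows were called lower and 13.5% higher. Of the 8 markers, 5 fell (median -0.46, against -0.03 over all rows), among them Asgr1 by 1.68, Ttpa by 1.13 and Ttr by 0.93, while Cps1 rose by 0.56. These are whole livers, so fewer cells of a type and less RNA per cell cannot be told apart.

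The stretches around the annotated starts of the 3 genes are shown so that the enzymes' starts can be set beside their levels. Each runs 5′ to 3′ over 300 bases of RefSeq assembly GRCr8, with the 250 bases before the start in lower case and the 50 bases from the start on in capitals. Bdh1 lies at chr11:82842587-82842886 on the minus strand, Bdh2 at chr2:226376106-226376405 on the plus strand and Acat1 at chr8:62904993-62905292 on the minus strand.
Bdh1: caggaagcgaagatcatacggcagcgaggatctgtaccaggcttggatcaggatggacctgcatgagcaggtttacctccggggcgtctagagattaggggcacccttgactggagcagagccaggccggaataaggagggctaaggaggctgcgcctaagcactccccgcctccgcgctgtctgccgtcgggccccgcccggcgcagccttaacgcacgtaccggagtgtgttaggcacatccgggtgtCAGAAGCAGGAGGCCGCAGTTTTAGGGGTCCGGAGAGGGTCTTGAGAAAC
Bdh2: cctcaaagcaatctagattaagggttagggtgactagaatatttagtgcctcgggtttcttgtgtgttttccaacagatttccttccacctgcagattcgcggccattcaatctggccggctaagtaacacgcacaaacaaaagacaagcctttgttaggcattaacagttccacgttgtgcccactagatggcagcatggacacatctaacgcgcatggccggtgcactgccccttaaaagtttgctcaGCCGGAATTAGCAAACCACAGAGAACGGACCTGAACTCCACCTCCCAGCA
Acat1: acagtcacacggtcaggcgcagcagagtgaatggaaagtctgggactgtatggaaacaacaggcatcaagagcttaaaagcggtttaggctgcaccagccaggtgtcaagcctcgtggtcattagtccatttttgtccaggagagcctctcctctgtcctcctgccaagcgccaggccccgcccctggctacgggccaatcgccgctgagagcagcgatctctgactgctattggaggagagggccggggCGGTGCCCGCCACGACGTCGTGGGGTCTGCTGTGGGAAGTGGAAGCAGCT

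The Bdh1 and Acat1 stretches are rich in G and C (62% and 60%), with 21 and 16 CG dinucleotides, against medians of 51.7% and 7 over the 33469 promoters of the table. The Bdh2 stretch holds 49% G and C and 11 CG dinucleotides. Both strands were searched for a direct repeat of AGGTCA with 1 base between the copies (the element of PPAR receptors), for TGACGTCA (the cyclic AMP response element) and for TGTTTAC (a forkhead motif). None of the 3 stretches matched any of them, nor AGGTCA alone, which overlaps the direct repeat. Of all promoters of the same length, 0.0538% held the direct repeat, 1.83% held TGACGTCA, 3.78% held TGTTTAC and 16.2% held AGGTCA. The absence of a match says only that these letters are not in this window.

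Bdh1, which makes 3-hydroxybutyrate, showed the widest range of the 3. In the 4 fed livers its log2 signal was 11.35, 11.11, 11.14 and 11.28 (mean 11.22 ± 0.11 SD, n = 4). In P2 livers it was 9.67, 9.37, 10.47 and 9.86 (9.84 ± 0.47 SD, n = 4), and in P3 livers 5.52, 5.11, 5.03 and 4.95 (5.15 ± 0.26 SD, n = 4). Re-fed livers had 10.73, 10.98, 10.61 and 10.83 (10.79 ± 0.16 SD, n = 4). No 2 of the 4 groups overlapped.

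**Figure D1:**
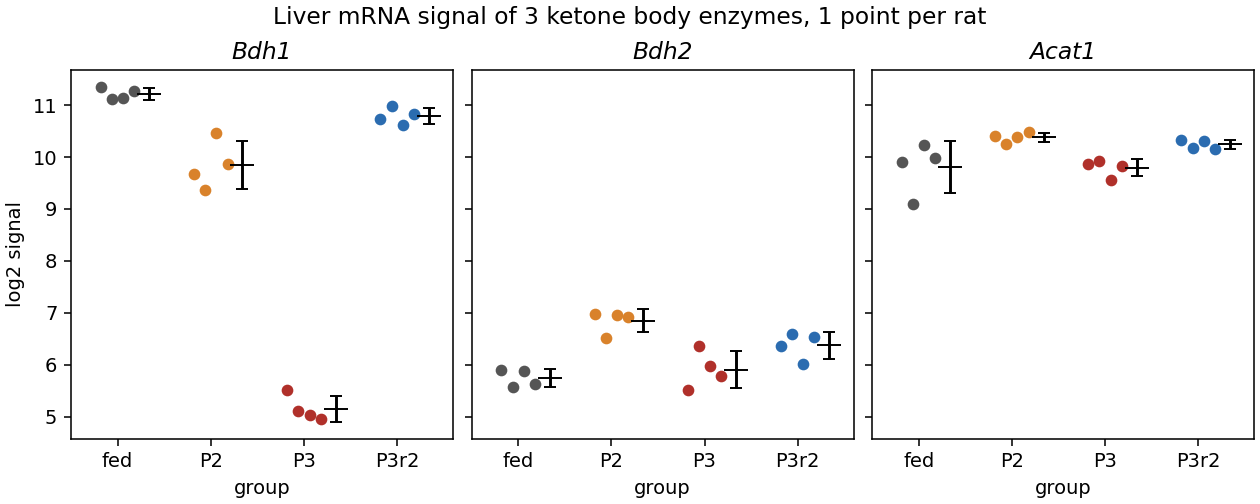
Log2 signal (y axis) of Bdh1, Bdh2 and Acat1 in each rat (points), by group (x axis), with the group mean and SD beside the points (n = 4). Bdh1 sits at 4.95 to 5.52 in P3 livers and at 9.37 or above in all others, Bdh2 is highest in P2 livers, and Acat1 stays between 9.1 and 10.48.

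At phase 2, Bdh1 fell by 1.38 ± 0.19 log2 units against fed livers (95% interval -1.78 to -0.97, adjusted p = 0.00061, limma), a 2.6-fold difference (1.96 to 3.44) that left 38.5% of the fed mean signal. Of all rows, 6.58% were called lower in this comparison, 9% lay wholly below the fed values without overlap, and 164 had a log2 difference at least as low. At phase 3, Bdh1 fell by 6.07 ± 0.19 against fed livers (-6.47 to -5.66, adjusted p = 1.2e-11), which is 67-fold (50.6 to 88.7) and leaves 1.49% of the fed signal. Rows called lower made up 8.06% of the array in that comparison, 8.05% lay wholly below the fed values, and the difference of Bdh1 was the 8th lowest of 18885. Between the phases of fasting it fell by 4.69 ± 0.19 (-5.09 to -4.28, adjusted p = 3.6e-10), or 25.8-fold, the 12th lowest of all rows, 8.53% of which were called lower and 9.36% wholly below the P2 values. The comparisons share the P3 or the fed arrays, so they are not separate evidence of the low P3 level.

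After 2 days of re-feeding, Bdh1 rose by 5.63 ± 0.19 log2 units from its phase 3 level (5.23 to 6.04, adjusted p = 2.3e-11), or 49.6-fold. This was the 11th highest difference on the array, where 10.5% of rows were called higher and 12.6% lay wholly above the P3 values. The rise made up 92.9% of the fall from fed to P3 on the log2 scale. All 4 re-fed livers nonetheless lay below the lowest fed liver, by 0.38, 0.13, 0.5 and 0.28 log2 units. The group difference of -0.43 ± 0.19 (-0.84 to -0.03) was not called (adjusted p = 0.3), in a comparison where 0.514% of rows were called lower and 2.7% lay wholly below the fed values. Re-fed livers had more Bdh1 signal than P2 livers by 0.94 ± 0.19 (0.54 to 1.35, adjusted p = 0.0045), where 11.3% of rows were called higher. No overlap in this direction was seen for 14.9% of rows. The call was lost once array spread entered the model as a covariate (0.74, adjusted p = 0.14). The order of levels was therefore fed, P3r2, P2 and P3, with fed and P3r2 the neighbours that were not told apart by the test.

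Bdh2, the cytosolic dehydrogenase, was highest at phase 2. Fed livers had log2 signals of 5.9, 5.58, 5.89 and 5.63 (mean 5.75 ± 0.17 SD, n = 4) and P2 livers 6.98, 6.52, 6.96 and 6.93 (6.85 ± 0.22 SD, n = 4). P3 livers had 5.52, 6.36, 5.98 and 5.78 (5.91 ± 0.35 SD, n = 4), and re-fed livers 6.36, 6.6, 6.02 and 6.53 (6.38 ± 0.26 SD, n = 4). All 4 P2 livers lay above every fed liver, as in 10.2% of rows, and above every P3 liver, as in 9.36%, while the ranges of fed and P3, of P3 and P3r2, and of P2 and P3r2 overlapped.

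At phase 2, Bdh2 rose by 1.1 ± 0.18 log2 units (0.72 to 1.47, adjusted p = 0.0015, limma), a 2.14-fold difference, in a comparison that called 6.13% of rows higher. From phase 2 to phase 3 it fell by 0.94 ± 0.18 (-1.31 to -0.56, adjusted p = 0.0011), or 1.91-fold, where 8.53% of rows were called lower. The hepatocyte markers that fell between the same groups lost 0.39 to 1.68 log2 units, and their part in this fall was not tested. P3 and fed livers differed by 0.16 ± 0.18 (-0.21 to 0.54, adjusted p = 0.65), so differences of up to 0.54 log2 units stay within the interval. The re-fed livers did not overlap with the fed ones (6.02 at the lowest against 5.9 at the highest), as was so for 9.85% of rows, and their difference of 0.63 ± 0.18 missed the threshold (0.25 to 1.01, adjusted p = 0.074), which 2.21% of rows passed upwards. Against P3 they differed by 0.47 ± 0.18 (adjusted p = 0.084) and against P2 by -0.47 ± 0.18 (adjusted p = 0.085), neither of them called. In the order P2, P3r2, P3 and fed, no neighbours were told apart, and the calls were those of P2 against P3 and of P2 against fed.

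Acat1, the mitochondrial thiolase at the entry of ketone synthesis, had the narrowest range of group means of the 3, from 9.79 to 10.38. Its log2 signals were 9.91, 9.1, 10.24 and 9.99 in fed livers (mean 9.81 ± 0.49 SD, n = 4) and 10.4, 10.26, 10.38 and 10.48 in P2 livers (10.38 ± 0.09 SD, n = 4). P3 livers had 9.86, 9.92, 9.55 and 9.83 (9.79 ± 0.17 SD, n = 4) and re-fed livers 10.33, 10.18, 10.3 and 10.16 (10.25 ± 0.09 SD, n = 4). The fed spread came from fed 2 at 9.1, an array whose upper quartile lay 1.56 log2 units above its median where the other fed arrays had 1.85 to 2.06. The P2 and re-fed livers all lay above every P3 liver, as in 9.36% and 12.6% of rows. The P2 livers also lay above every fed liver, by 0.02 log2 units at the closest, as in 10.2% of rows.

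**Figure D2:**
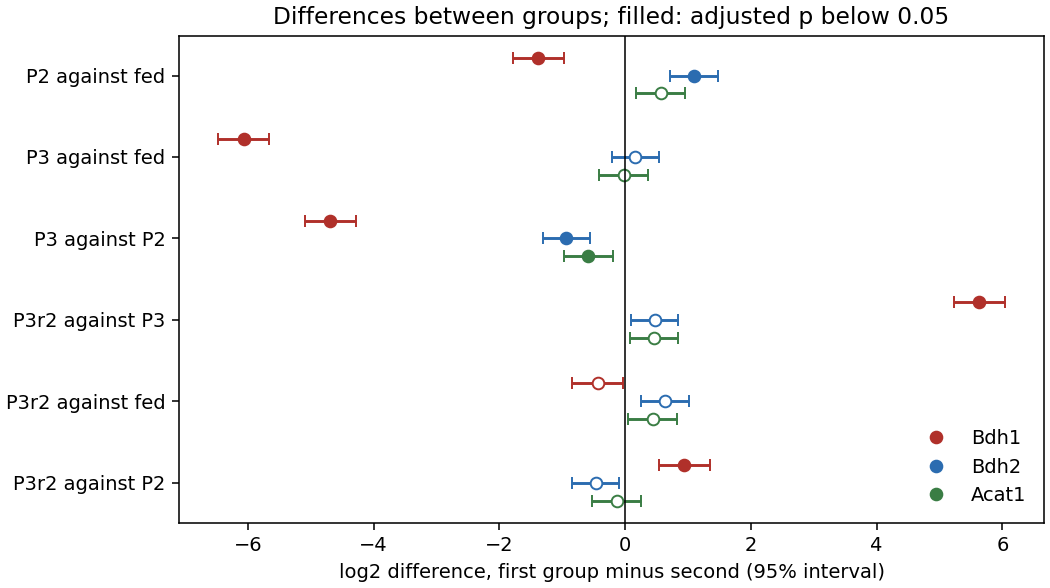
Log2 difference, first group minus second (x axis), for Bdh1, Bdh2 and Acat1 in the 6 comparisons (y axis), with 95% intervals of the limma fit, and filled points for an adjusted p below 0.05. Bdh1 lies at -6.07 and 5.63 on either side of phase 3, while the Bdh2 and Acat1 points stay within -0.94 and 1.1.

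One comparison of Acat1 was called: it was lower in P3 than in P2 livers by 0.59 ± 0.18 log2 units (-0.98 to -0.2, adjusted p = 0.029, limma), or 1.51-fold, where 8.53% of all rows were called lower. Of the 8 hepatocyte markers, 5 fell between these groups (median -0.46), and their part in the fall of Acat1 was not tested. This call was lost in 5 fits that left out 1 array, P2 1, P2 3, P2 4, P3 3 or P3 4 (adjusted p = 0.056, 0.052, 0.072, 0.072 and 0.055), and after quantile normalization (-0.34, adjusted p = 0.062). P2 livers exceeded fed livers by 0.57 ± 0.18 (0.18 to 0.96), just short of the threshold (adjusted p = 0.052), and by 0.33 without fed 2. Re-fed livers exceeded P3 livers by 0.46 ± 0.18 (adjusted p = 0.1) and fed livers by 0.44 ± 0.18 (adjusted p = 0.27), the latter by 0.2 without fed 2. P3 and fed livers differed by -0.02 ± 0.18 (-0.41 to 0.37), and P3r2 and P2 livers by -0.13 ± 0.18 (-0.52 to 0.25).

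Across the 3 enzymes, 2 were called at phase 2 against fed, in opposite directions, where 12.7% of all rows were called. At phase 3 against fed Bdh1 alone was called (19.3% of rows), and between phase 2 and phase 3 all 3 were lower (22% of rows in either direction). From phase 3 to re-feeding Bdh1 alone was called (18.4% of rows), between re-fed and fed livers none of the 3 (2.72%; Bdh1, Bdh2 and Acat1 had unadjusted limma p of 0.038, 0.0027 and 0.03), and between re-fed and P2 livers Bdh1 alone (15.6%). The median log2 difference over all rows was between -0.03 and 0.05 in the 6 comparisons.

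The remaining genes of ketone synthesis and export were read from a list of 9, of which 7 had a row of their own. At phase 2 against fed, 6.58% of all rows were called lower and 6.13% higher. Of the 7 list genes, 3 fell and none rose (median of the list 0.04, against 0.05 over all rows). Besides Bdh1 these were Slc16a1, the monocarboxylate transporter 1 that carries ketone bodies, lactate and pyruvate (-0.96 ± 0.16, adjusted p = 0.002), and Slc16a6, described in zebrafish as the exporter of 3-hydroxybutyrate from hepatocytes (-1.25 ± 0.26, adjusted p = 0.0066). The Slc16a6 signal ran from 5.31 to 5.8 in fed livers, from 4.01 to 4.5 in P2, from 5.47 to 7.09 in P3 and from 5.43 to 5.91 in re-fed livers. The P2 livers lay below all other groups, and the P3 livers spread widely. P2 livers lay wholly below fed livers in 9% of all rows, and wholly below re-fed livers in 14.9%. The P2 values lie near the median signals of the arrays (4.34 to 4.46), and whether Slc16a6 was detected in P2 livers was not tested. From phase 2 to phase 3 Slc16a6 rose by 2.13 ± 0.26 (adjusted p = 2.8e-05), against the direction of Bdh1.

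At phase 3 against fed, 1 of the 7 rose and 3 fell (median -0.29, against 0.03 over all rows), and against P2 1 rose and 4 fell (median -0.59, against -0.03). Among all rows, 11.3% were called higher and 8.06% lower against fed, and 13.5% and 8.53% against P2. The calls against fed of Slc16a6 (0.88 ± 0.26, higher) and Slc16a7 (-0.7 ± 0.22, lower) were each lost in 8 of 29 alternatives. Bsg, basigin, the chaperone that brings monocarboxylate transporters to the cell surface, was lower in P3 than in P2 livers by 0.62 ± 0.12 (adjusted p = 0.0012), and by 0.33 after quantile normalization. Slc16a7, the monocarboxylate transporter 2, was lower in P3 than in P2 livers by 0.78 ± 0.22 (adjusted p = 0.019, but 0.062, 0.054 and 0.073 without P2 1, P3 3 and P3 4) and higher after re-feeding than in P3 by 1.00 ± 0.22 (adjusted p = 0.0046). Slc16a1 was still called lower in P3 than in fed livers (-0.78 ± 0.16, adjusted p = 0.0024), with log2 signals of 8.79 to 9.26 in P3 and 9.42 to 10.02 in fed livers. Re-fed livers, at 8.93 to 9.37, also lay below the fed ones, as in 2.7% of rows. The difference of -0.66 ± 0.16 was called (adjusted p = 0.041), where 0.514% of all rows were called lower. This call was lost in 14 of 29 alternatives, among them 9 fits that left out 1 array (adjusted p = 0.083, 0.086 and 0.099 without fed 1, fed 3 and fed 4, 0.052 and 0.053 without P2 1 and P2 2, and 0.13, 0.12, 0.052 and 0.069 without P3r2 1 to 4). Hmgcll1, an enzyme of ketone synthesis outside the mitochondrion, had group means of 3.33 to 3.4 and was not called in any of the 6 comparisons. These means lie below the median signals of the arrays (4.34 to 4.46), and whether Hmgcll1 was detected at all was not tested.

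**Figure D3:**
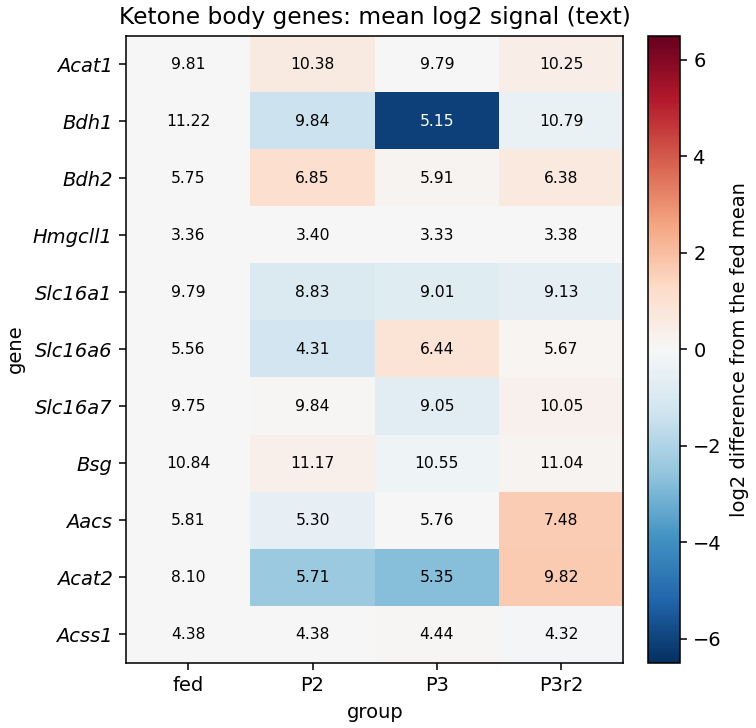
Mean log2 signal per group (numbers) of the measured genes of ketone synthesis, export and use (y axis), coloured by the log2 difference from the fed mean, by group (x axis, n = 4). Bdh1 is the darkest cell at phase 3 (5.15 against 11.22), and Acat2 and Aacs are higher in re-fed than in fed livers.

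Genes that use or activate acetoacetate were read from a list of 11, of which 6 had a row of their own, the 3 enzymes among them. Acat2 is the cytosolic thiolase that feeds sterol synthesis, a relative of Acat1 by reaction. It fell by 2.39 ± 0.28 at phase 2 (adjusted p = 0.00016) and by 2.75 ± 0.28 at phase 3 (adjusted p = 3.7e-06) against fed livers. After re-feeding it rose by 4.47 ± 0.28 from phase 3 (adjusted p = 2.4e-08), to 9.52 to 9.97 per liver, above the fed range of 7.4 to 8.54. Re-fed livers exceeded fed livers by 1.72 ± 0.28 (adjusted p = 0.0037). Aacs, acetoacetyl-CoA synthetase, which returns acetoacetate to cytosolic lipid synthesis, was likewise higher in re-fed than in fed livers (1.67 ± 0.16, adjusted p = 5.8e-05), at 7.11 to 7.89 against 5.71 to 5.99. Of the 6 genes, 2 rose and none fell between these groups (median 0.53, against 0.02 over all rows). In this comparison 2.21% of all rows were called higher and 0.514% lower. Acss1, the mitochondrial acetyl-CoA synthetase, had group means of 4.32 to 4.44 and was not called in any comparison. Its means lie near the median signals of the arrays (4.34 to 4.46), and whether Acss1 was detected was not tested.

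The last steps of fatty acid beta-oxidation, which deliver acetyl-CoA, were measured by 9 of 13 listed genes, Acat1 and Acat2 among them. Between phase 2 and phase 3, 8 of the 9 fell and none rose (median -0.87, against -0.03 over all rows), where 8.53% of all rows were called lower. Hadh, the short-chain hydroxyacyl-CoA dehydrogenase, fell by 3.12 ± 0.36 (adjusted p = 1.9e-05), with signals of 7.23 to 9.48 in P3 against 11.53 to 11.85 in P2 livers. Ehhadh, the peroxisomal bifunctional enzyme, fell by 1.95 ± 0.30 (adjusted p = 0.00021), and Acaa2, the mitochondrial 3-ketoacyl-CoA thiolase, by 1.35 ± 0.17 (adjusted p = 4.1e-05). At phase 2 against fed, 2 of the 9 rose, Hsd17b10 (1.03 ± 0.13, adjusted p = 0.00028), which precedes Acat1 in isoleucine breakdown, and Echs1 (0.67 ± 0.13, adjusted p = 0.0053), the short-chain enoyl-CoA hydratase. Acat2 was the 1 that fell, where 6.13% of all rows were called higher and 6.58% lower. After re-feeding 6 of the 9, Acat2 among them, were higher than in P3 livers and none lower, where 10.5% of rows were called higher. Against fed livers only Acat2, the cytosolic thiolase, was higher (1.72 ± 0.28, adjusted p = 0.0037), where 2.21% of all rows were called higher.

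Regulators of ketogenesis were measured by 21 of 23 listed genes. At phase 2 against fed, 1 of them rose and 4 fell (median -0.06, against 0.05 over all rows), where 6.13% of all rows were called higher and 6.58% lower. The largest falls were those of Acaca (-3.22 ± 0.27, adjusted p = 1e-05) and Acacb (-2.43 ± 0.21, adjusted p = 1e-05), the acetyl-CoA carboxylases whose product malonyl-CoA restrains entry of fatty acids into mitochondria. At phase 3 against fed, 6 rose and 7 fell (median -0.11, against 0.03), where 11.3% of all rows were called higher and 8.06% lower. The coactivator Ppargc1a rose by 5.10 ± 0.29 (adjusted p = 9e-09) and Irs2, an insulin receptor substrate, by 3.26 ± 0.27 (adjusted p = 5.9e-07). The largest falls were again those of Acacb (-3.45 ± 0.21, adjusted p = 2e-08) and Acaca (-2.38 ± 0.27, adjusted p = 1.2e-05). Gcgr, the glucagon receptor, fell by 2.30 ± 0.30 (adjusted p = 4.9e-05). Ppara, the fatty acid receptor that drives ketogenic genes, had group means of 8.44, 7.96, 9.25 and 8.75 in fed, P2, P3 and P3r2 livers, and was called higher in P3 than in P2 (1.29 ± 0.29, adjusted p = 0.0046, but 0.66 and adjusted p = 0.055 with array spread as a covariate). Fgf21, the fasting hormone it induces, had 5.8, 5.54, 4.93 and 6.59, and was called higher in re-fed than in P3 livers (1.66 ± 0.43, adjusted p = 0.012).

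Enzymes of amino acid breakdown, most of them on routes to acetoacetate or acetyl-CoA, were measured by 22 of 26 listed genes. The list also holds Hibch, an enzyme of valine breakdown, and the kinase Bckdk, which lie outside these routes. At phase 3 against fed, 5 of the 22 were called higher and 2, Kynu and Hibch, lower (median -0.08, against 0.03 over all rows). Hibch differed by -0.89 ± 0.25 (adjusted p = 0.018). In this comparison 11.3% of all rows were called higher and 8.06% lower. Tdo2, the tryptophan dioxygenase (1.69 ± 0.16, adjusted p = 1.8e-06), Dbt, a core subunit of the branched-chain dehydrogenase (1.88 ± 0.14, adjusted p = 2.3e-07), and Tat, tyrosine aminotransferase (1.28 ± 0.16, adjusted p = 2.8e-05), rose. Kynu, kynureninase, fell by 2.42 ± 0.28 (adjusted p = 1.2e-05), and had already fallen by 1.27 ± 0.28 at phase 2 (adjusted p = 0.0091). It was also lower in re-fed than in fed livers (-1.41 ± 0.28, adjusted p = 0.012).

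The genes with the closest course to each enzyme were those with the smallest root mean square difference of the 16 log2 values, each gene centred on its own mean. For Bdh1, whose SD over the 16 arrays was 2.51, these were Serpina6, corticosteroid-binding globulin (0.45 log2 units), Gstp3, a glutathione S-transferase (0.6), and G0s2, an inhibitor of adipose triglyceride lipase (0.65), where the median gene lay at 2.45. Serpina6 had group means of 11.03, 9.68, 5.04 and 10.53 in fed, P2, P3 and P3r2 livers, and so shared both the step at phase 2 and the low phase 3 level. Gstp3 (11.47 and 11.42) had no such step between fed and P2. For Bdh2 the closest were Gsto1, an omega-class glutathione transferase (0.23), Psmb3, a proteasome subunit (0.24), and Hsd17b10 (0.26), against a median of 0.56. For Acat1 they were Ogg1, a DNA glycosylase for oxidised guanine (0.13), Sod2, the mitochondrial superoxide dismutase (0.15), and Ebag9 (0.15), against a median of 0.43. The values describe these 16 arrays, which share the 4 group means, and carry no test.

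**Figure D4:**
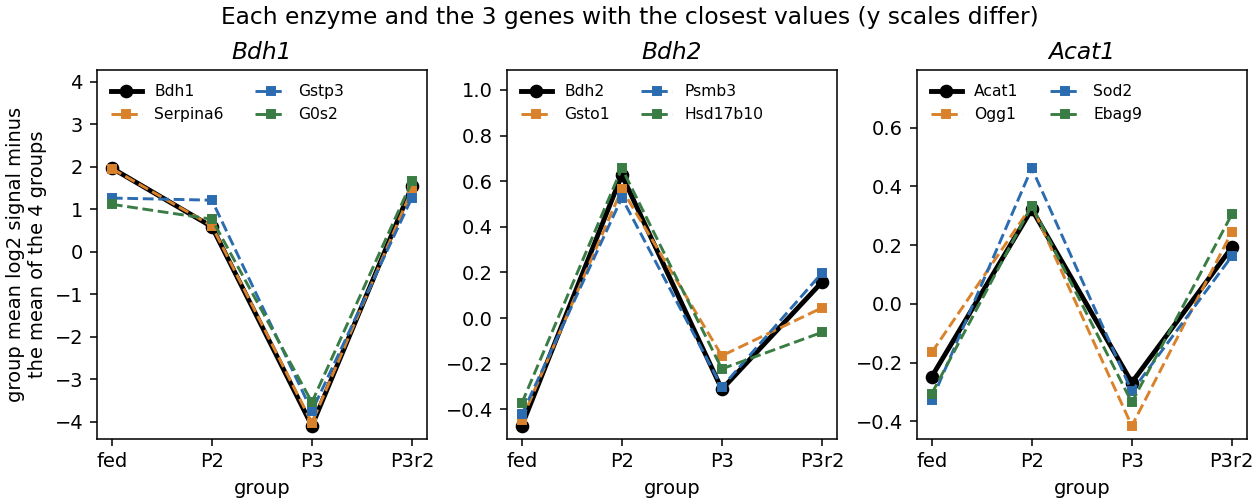
Group means of log2 signal minus the mean of the 4 groups (y axis, scales differ between panels) by group (x axis) for each enzyme (black) and its 3 closest genes (colours). Serpina6 overlies Bdh1 in all 4 groups, while Gstp3 and G0s2 lie below it in fed livers.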

How the data were processed

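Liver RNA of 16 rats was measured on Affymetrix Rat Exon 1.0 ST arrays. The deposited log2 signals, 1 per transcript cluster, come from GCOS 1.4 and Expression Console 1.1, which the authors ran per the series' design text. How probes were summarised and background corrected is not stated in the sources used here. The log2 scale was inferred from the deposited range, 0.84 to 13.6. Values were used without further scaling. Of 19418 rows, 533 with identifiers below the annotated range were left out. Symbols came from the array's probe table, updated by Entrez ID through RefSeq (GRCr8), and the brightest row stood for a gene.

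In limma 3.58.1 (R 4.3.3), 1 model of 4 group means was fitted, with 6 contrasts, moderated two-sided tests and p-values adjusted by Benjamini-Hochberg over all rows. The steps were tested on simulated data. Replicates are separate rats, and 4 arrays per group limit the precision. Named genes were the enzymes, the called list members with the largest differences (up to 4 per list and comparison, of which the text gives a part) and the 3 closest genes to each enzyme; Hmgcll1, Acss1, Ppara, Fgf21, Gcgr (P3 against fed), Cs (P3 against P2) and Tat were added after their values were seen. The genes and lists were chosen with earlier results of these data known. Replicate numbers were not taken as pairs of rats. Deviations from group means correlated at -0.4 to 0.26 between same-numbered arrays and at -0.31 to 0.31 between differently numbered ones. These ranges show no pairing but cannot exclude one. Figures were drawn with matplotlib 3.10.9.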

Additional observations from a re-analysis of the deposited data

Results flagged for a closer look

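Of 44 sets of 4 values (11 genes of the enzymes and the ketone lists in 4 groups), 1 held an animal far from the others by Dixon's criterion, which chance meets in about 1 of 20 sets. Bdh2 in P2 2 was 6.52, where the other P2 livers had 6.93 to 6.98, a gap of 0.902 of the group's range. Without P2 2 the rise of Bdh2 against fed was 1.21 log2 units, and with it 1.1.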

How the results depend on the processing

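Over 29 alternatives, 16 of which leave out 1 array, Bdh1 kept its direction and its side of the threshold in P2 against fed (-1.59 to -1.22), P3 against fed (-6.19 to -6), P3 against P2 (-4.84 to -4.48), P3r2 against P3 (5.54 to 5.76) and P3r2 against fed (-0.53 to -0.37), as did Bdh2 in P2 against fed (0.99 to 1.26) and P3 against P2 (-1.14 to -0.81). The exception for Bdh1 was P3r2 against P2 once array spread was added as a covariate (0.74, adjusted p = 0.14).

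Acat1 at P2 against fed was called after quantile normalization (0.5), over the brighter rows (0.57), with all rows of a gene averaged (0.57), with the array spread as a covariate (0.75) and with the trend with gene span taken out (0.63). Over the brighter rows and with rows averaged, the difference stayed at 0.57. Only its adjusted p moved, from 0.052 to 0.033 and 0.041. Leaving out single arrays the difference ran from 0.33 to 0.71 and was called without fed 3 (0.71, adjusted p = 0.021) and without P3 3 (0.57, adjusted p = 0.045). Acat1 at P3 against P2 lost its call after quantile normalization (-0.34) and at a threshold of 0.01 (-0.59), and ran from -0.63 to -0.51 with single arrays left out. Acat1 at P3 against fed turned to 0.16 after quantile normalization, and to 0.01, 0.12, 0.04 and 0.06 without fed 1, fed 3, fed 4 and P3 3 (range -0.26 to 0.12), none of them called. Acat1 at P3r2 against P3 was called with array weights (0.43), with the 2 groups alone (0.46), without fed 2, P2 4 and P3 3 together (0.38), and without fed 2 (0.46; range 0.38 to 0.5). Bdh2 at P3r2 against fed was called over the brighter rows (0.63) and without P3 2 (adjusted p = 0.043; range 0.56 to 0.75). Bdh2 at P3r2 against P2 was called after quantile normalization (-0.8) and with the span trend taken out (-0.51). Bdh2 at P3r2 against P3 was called without P3 2 (0.62) and without P3r2 3 (0.59; range 0.34 to 0.62). The causes were not tested.

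Fed 2, P2 4 and P3 3 were taken as narrow arrays from earlier results of these data. Their upper quartiles lay 1.56, 1.49 and 1.68 above the median, but P2 1 and P2 2, which stayed in, were narrower than P3 3 (1.67 and 1.65).

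Counts of rows called moved more. In P2 against fed (1158 higher, 1242 lower) they were 1894 lower with array weights, 638 higher with the 2 groups alone, 381 and 438 at a threshold of 0.01, and 769 lower with the spread covariate. Single arrays left out gave 608 to 1387 higher (681, 731 and 608 without fed 4, P2 2 and P2 4) and 592 to 1626 lower (755, 596, 790 and 592 without fed 1, fed 4, P2 2 and P2 4). In P3 against P2 (2543 and 1611) there were 894 lower at 0.01 and 1624 higher with the covariate, and in P3r2 against P3 (1975 and 1498) 890 lower at 0.01. In P3r2 against fed (417 and 97) there were 209 and 183 after quantile normalization, 1146 and 321 with array weights, 126 and 43 at 0.01, 179 lower without fed 2, P2 4 and P3 3 and 351 lower with the covariate. Single arrays left out gave 179 to 513 higher (215 without fed 2, and 193, 206, 179 and 245 without P3r2 1 to 4) and 56 to 114 lower (56, 63, 63 and 57 without P3r2 1 to 4). In P3r2 against P2 (2131 and 823) there were 1691 lower with array weights, 999 and 181 at 0.01, and 289 and 262 with the covariate. Single arrays left out gave 1258 to 2488 higher (1258 without P2 4, and 1357, 1302 and 1277 without P3r2 1, 2 and 3) and 335 to 1011 lower (498 and 402 without P2 2 and P2 4, and 362, 335 and 366 without P3r2 1, 2 and 3).

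Of 126 named gene results from the lists, 88 stayed called under all 29 alternatives, and none changed sign. Counts of called list members were within 1.5 times in 2129 of 2436 recomputations. Median centring and the trend and robust options of eBayes changed no call of the 3 enzymes.

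With the replicate number as a block, no call of the 3 enzymes changed (Acat1 at P3 against P2 had an adjusted p of 0.038) and no count moved by over 1.5 times (955 higher and 1009 lower in P2 against fed). Of the 16 arrays, 3 correlated best with an array of their own number. Depth in reads does not apply to arrays. Without detection calls, how far background signal limits the fold of Bdh1 at phase 3 was not tested.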

Other observations

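Iron genes were listed because of the siderophore work on Bdh2 in mouse, and 12 of 16 had a row of their own. At phase 2 against fed, 1 of the 12 fell and none rose (median -0.23), where 12.7% of all rows were called. That gene was Ireb2, the iron regulatory protein 2 (-1.25 ± 0.28, limma adjusted p = 0.011). At phase 3 against fed, 3 rose and 5 fell (median 0.2, against 0.03 over all rows), where 11.3% of all rows were called higher and 8.06% lower. Hmox1, heme oxygenase 1, rose by 2.62 ± 0.41 (adjusted p = 0.0002), and Hfe, a membrane protein of iron sensing, fell by 2.65 ± 0.24 (adjusted p = 1.2e-06). Between re-fed and fed livers none of the 12 was called, where only 2.72% of all rows were called.

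The citric acid cycle, the other main fate of acetyl-CoA in mitochondria, was measured by 15 of 18 listed genes. The 15 include Pdk2 and Pdk4, kinases of pyruvate dehydrogenase that are not part of the cycle. Neither kinase was called at phase 2 against fed or from phase 2 to phase 3. At phase 2 against fed, 3 of the 15 rose and 2 fell, where 6.13% of all rows were called higher and 6.58% lower. Citrate synthase, Cs, which takes acetyl-CoA into the cycle, fell by 0.84 ± 0.12 (limma adjusted p = 0.00088). From phase 2 to phase 3, 6 rose and 2 fell, where 13.5% of all rows were called higher and 8.53% lower. Cs rose by 0.95 ± 0.12 (adjusted p = 5.2e-05; with its rows averaged in place of the brightest row, it fell by 0.46 at phase 2 and rose by 0.51 at phase 3) and Idh3a, a subunit of isocitrate dehydrogenase, by 2.23 ± 0.21 (adjusted p = 3.5e-06), while Idh2, the NADP-dependent form, fell by 1.24 ± 0.27 (adjusted p = 0.003).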
